A study of Mus musculus with 24 samples.

Results

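Rosiglitazone maleate was compared with no drug in the liver of mice labelled as lacking the nuclear receptor PPARγ in hepatocytes, over all genes. The 10 libraries of this comparison were chosen by their labels from the 24 of the series, with 1 library per mouse. The HF_TZD_KO group (n = 5) held mice labelled hepatocyte-specific PPARγ knockout that ate the HFCF diet, labelled high fat, for 34 weeks and had rosiglitazone maleate in that diet during the last 8 weeks. The HF_KO group (n = 5) held mice of the same label on the same diet without the drug. In both groups the knockout was induced after 24 weeks of diet and lasted 10 weeks. The same drug contrast in mice labelled control on that diet, HF_TZD_C against HF_C (n = 5 each), is set beside it, and LF_C (n = 4) held healthy control mice on the diet labelled low fat. All groups on the HFCF diet carry the label NASH, nonalcoholic steatohepatitis, which is fatty liver with inflammation. The labels used here do not give how the gene was deleted, nor the sex or the age of the mice beyond adult. The knockout label applies to hepatocytes and not to other liver cells or other organs.

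PPARγ binds DNA together with the retinoid X receptor and turns on genes of fat storage when a fatty acid or a thiazolidinedione such as rosiglitazone occupies it. It is most abundant in adipocytes, the main site of thiazolidinedione action, and it is scarce in hepatocytes of lean liver and more abundant in those of fatty liver. In fatty hepatocytes it is known to drive genes of lipid uptake and lipid droplets, among them Cd36, Fabp4 and Cidec. The comparison was made to see which liver genes the drug still changes when hepatocytes are labelled as lacking the receptor.

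Levels below are counted reads of a gene per 1e6 counted reads (CPM) after TMM scaling over all 24 libraries. Log2 fold changes are HF_TZD_KO over HF_KO, from edgeR's quasi-likelihood test with Benjamini-Hochberg adjustment over all genes tested, unless another pair of groups is named. The libraries held 19.5 to 22.9 M counted reads in HF_TZD_KO and 23.3 to 26.8 M in HF_KO. The liver label was met by 21 hepatocyte markers, none at 0, which summed to 98550 to 137400 CPM in HF_TZD_KO and 76970 to 86840 CPM in HF_KO. HF_TZD_KO replicate 5 stood apart from the other dosed mice. On the first principal component of the 24 libraries, which held 43% of the variance, it scored -57.7, against -4.26 to 17.6 for the other 4 libraries of its group, 8.75 to 20.9 in HF_KO and -108 to -63.6 in LF_C. It was the highest or the lowest of its group at 59.8% of tested genes and replicate 2 at 50.9%, against 27.9 to 31.0% for the other three.

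Pparg itself, the gene named in the knockout label (chromosome 6, 115361221 to 115490401 on GRCm38), had 56.2, 39.0, 62.1, 44.6 and 31.6 CPM in HF_TZD_KO, against 60.6, 57.5, 70.3, 69.2 and 63.3 CPM in HF_KO. The groups overlapped, and the difference did not pass (log2 fold change -0.45, SE 0.15, adjusted p = 0.173). Both groups labelled knockout lay above the control mice in mean level, with 46.7 ± 12.5 CPM in HF_TZD_KO and 64.2 ± 5.47 CPM in HF_KO, against 27.0 ± 2.37 CPM in HF_TZD_C and 32.4 ± 2.66 CPM in HF_C (SD, n = 5 each), a pair of genotypes that was not tested here. A count over the whole gene also takes reads of exons outside a deletion and reads of other cells, so it does not check the deletion, and the mice are called labelled knockout throughout.

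Under rosiglitazone, the genes that rose in livers labelled knockout included Cps1 and Arg1 of the urea cycle, Ahcy and Gnmt of the methionine cycle, the hepcidin gene Hamp and the lipid genes Thrsp and Pnpla3. Those that fell included the interferon-stimulated genes Gbp6, Gbp3 and Irf7 and the mitotic cyclins Ccnb1 and Ccnb2. Most members of the lists these genes belong to did not pass by edgeR. It called 4 of 25 for amino acid and urea cycle metabolism and 2 of 22 for fatty acid synthesis. Of interferon-stimulated genes it called 4 of 23 and of the cell cycle 2 of 24. In that order, 20, 10, 22 and 14 members had an unadjusted p under 0.05, and DESeq2 called 11, 4, 14 and 8. At an adjusted p of 0.05, 107 of 14559 genes were called, which is 0.735%. HF_TZD_KO lay above HF_KO at 62 of them (0.426%) and below it at 45 (0.309%), and 104 of the 107 were protein-coding. A change of at least 1 on the log2 scale was seen at 31, of which 14 rose and 17 fell. With libraries scaled by their totals alone, the median of all genes moved to -0.11 and the calls were 51 higher and 169 lower. In 99 of the 107 genes no dosed mouse overlapped an undosed one, against 637 of all genes tested (4.38%).

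These calls lay just inside the threshold. The smallest adjusted p was 0.0259, 104 of the 107 were at 0.03 or more, and 2232 of the 14559 genes tested had an unadjusted p under 0.05. The count was 143 without HF_KO replicate 1 and 0 without its replicate 2, 3, 4 or 5. It was 223 without HF_TZD_KO replicate 1, 0 without its replicate 2, 14 without its replicate 3, 0 without its replicate 4 and 159 without its replicate 5. Where edgeR called 0, between 1791 and 2481 genes still had an unadjusted p under 0.05. In each of these 10 fits all 107 genes kept their direction, with an adjusted p of at most 0.133 and an unadjusted p of at most 0.00144. The genes were picked on these same libraries, so their direction could hardly change when a library was left out. From the same counts DESeq2 called 649 of 15732 genes, and the authors' deposited table listed 645 genes under 0.05, all 107 among them with the same sign.

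**Figure D1:**
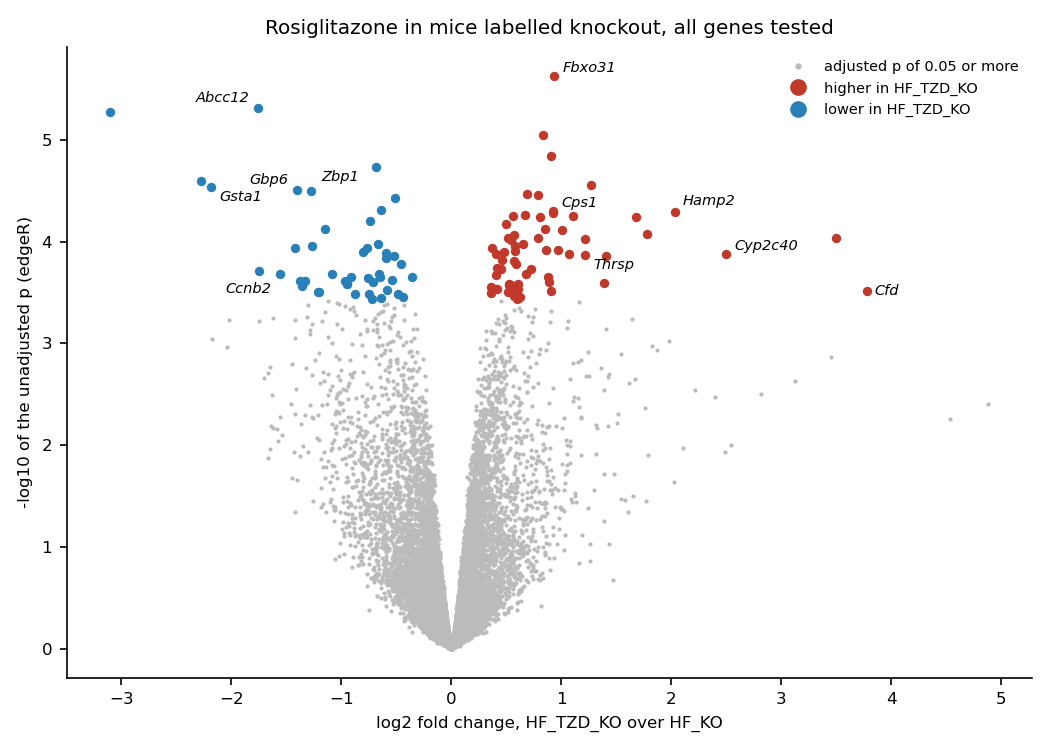
Each point is 1 of the 14559 genes tested, placed by its log2 fold change of HF_TZD_KO over HF_KO (x axis) and by the -log10 of its unadjusted p from edgeR (y axis). Red points are the 62 genes called higher and blue points the 45 called lower, and 31 of these 107 lie at least 1 log2 unit from 0.

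Enzymes of nitrogen disposal and of the methionine cycle were among the genes that rose. Cps1, the enzyme that commits ammonia to the urea cycle (chromosome 1, 67123026 to 67231259), had 2676, 3301, 3158, 2588 and 4648 CPM in HF_TZD_KO, against 2010, 1685, 1732, 1475 and 1760 CPM in HF_KO. Every dosed mouse stood above every undosed one (log2 fold change 0.93, SE 0.16, adjusted p = 0.0365), and replicate 5 was the highest. Arg1, which releases urea in the last step of the cycle, had 983, 1085, 891, 1029 and 1167 CPM in HF_TZD_KO, against 815, 675, 713, 597 and 687 CPM in HF_KO. The groups were again apart, at a smaller distance (log2 fold change 0.57, SE 0.10, adjusted p = 0.0373). Ahcy, which splits S-adenosylhomocysteine, had 1198, 1632, 1427, 1266 and 1867 CPM in HF_TZD_KO, against 1062, 946, 1011, 802 and 819 CPM in HF_KO, with no overlap (log2 fold change 0.68, SE 0.13, adjusted p = 0.0453).

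Gnmt, which uses up excess S-adenosylmethionine in liver, had 810.1, 1113, 1042, 1011 and 1285 CPM in HF_TZD_KO, against 855, 594, 675, 676 and 626 CPM in HF_KO. HF_KO replicate 1 lay above the lowest dosed mouse, so these groups touched (log2 fold change 0.63, SE 0.13, adjusted p = 0.0488). Cps1, Arg1, Ahcy and Gnmt were the members that rose among 25 genes of amino acid and urea cycle metabolism, and none fell. The median log2 fold change of the list was 0.39, beside 0.00 over all genes tested, and 23 of the 25 were above 0. The remaining urea cycle enzymes did not pass: Ass1 had a log2 fold change of 0.48 (adjusted p = 0.0907), Asl of 0.56 (adjusted p = 0.0598) and Otc of 0.33 (adjusted p = 0.258).

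Over the 21 hepatocyte markers, Cps1 and Arg1 rose by edgeR and none fell, while DESeq2 called 12 higher. An unadjusted p under 0.05 was found at 14, and all 21 markers were above 0, with a median of 0.43. Alb, the albumin gene and the most abundant of them, had 58400, 67090, 69710, 74110 and 83840 CPM in HF_TZD_KO, against 50490, 47430, 50700, 42920 and 44590 CPM in HF_KO. No dosed mouse overlapped an undosed one, but the gene missed the threshold (log2 fold change 0.59, SE 0.15, adjusted p = 0.0861). Without replicate 5 it passed at a smaller change (log2 fold change 0.51, adjusted p = 0.0451). Slc10a1, the bile acid uptake carrier, Serpina1a, an antitrypsin, and Tat, tyrosine aminotransferase, had log2 fold changes of 0.72, 0.47 and 0.69 and did not pass.

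Each library's position on a list was taken as the median of log2 levels over its tested members, relative to the HF_KO mean. For the hepatocyte markers it was 0.23, 0.40, 0.25, 0.26 and 0.61 in HF_TZD_KO and 0.10, -0.05, 0.02, -0.01 and -0.06 in HF_KO. For the amino acid list it was 0.29, 0.46, 0.36, 0.19 and 0.75 in HF_TZD_KO and 0.22, -0.04, 0.02, -0.16 and -0.11 in HF_KO. Replicate 5 was the highest on both, and without it the medians over genes were 0.29 and 0.32. In whole liver, more hepatocytes and more of these mRNAs per hepatocyte cannot be told apart.

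Other genes with the smallest adjusted p among those that rose came from several pathways. Urad, which handles an intermediate of uric acid breakdown, had 41.2, 40.8, 44.2, 47.2 and 44.8 CPM in HF_TZD_KO, against 33.7, 23.2, 22.3, 21.0 and 22.9 CPM in HF_KO. HF_KO replicate 1 came closest to the dosed mice, without overlap (log2 fold change 0.83, SE 0.12, adjusted p = 0.0323). Pfkfb1, whose liver enzyme sets the level of fructose 2,6-bisphosphate, had 43.3, 62.2, 58.4, 67.0 and 66.8 CPM in HF_TZD_KO, against 38.2, 24.3, 33.4, 30.8 and 33.0 CPM in HF_KO (log2 fold change 0.90, SE 0.13, adjusted p = 0.0365). Every dosed mouse was above every undosed one, though reads of the overlapping gene Apex2 cannot be told apart in libraries without strand. Pfkfb1 was the member that rose among 24 genes of glucose and fructose metabolism, and none fell. Pck1, the first committed enzyme of gluconeogenesis, had a log2 fold change of 0.48 (adjusted p = 0.265).

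Herpud1, a component of the machinery that clears misfolded proteins from the endoplasmic reticulum, had 315, 457, 300.2, 414 and 412 CPM in HF_TZD_KO, against 254, 223, 247, 233 and 239 CPM in HF_KO (log2 fold change 0.67, SE 0.11, adjusted p = 0.0365). The undosed mice lay within a narrow band below the dosed ones. By edgeR Herpud1 was the member that rose among 22 genes of endoplasmic reticulum stress, none of which fell, and the list's median was -0.03. DESeq2 called 1 of the 22 higher and 1 lower. Fbxo31, a ubiquitin ligase subunit (chromosome 8, 121549440 to 121578806), shared the smallest adjusted p of the comparison, with 70.8, 97.1, 66.2, 88.9 and 101 CPM in HF_TZD_KO, against 51.0, 42.0, 44.4, 42.5 and 42.1 CPM in HF_KO. HF_KO replicate 1 was the highest undosed mouse and still lay below all dosed ones (log2 fold change 0.94, SE 0.12, adjusted p = 0.0259). Paox, which oxidises polyamines, St3gal5, the synthase of the ganglioside GM3, and Fam47e rose by 0.69, 0.79 and 0.92. Scnn1a, a subunit of the epithelial sodium channel, and Acpp, an acid phosphatase, rose by 1.11 and 1.22 on the log2 scale, without overlap in any of these 5 genes.

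The iron hormone hepcidin was among the genes that rose most. Hamp, which encodes it, had 176, 348, 184, 285 and 255 CPM in HF_TZD_KO, against 154, 104, 70.0, 52.5 and 93.7 CPM in HF_KO (log2 fold change 1.41, SE 0.26, adjusted p = 0.0373). Every dosed mouse was above every undosed one, and HF_KO replicate 1 again came closest. Hamp2, a near copy of Hamp beside it in the mouse genome, had 54.2, 144, 59.0, 84.4 and 143 CPM in HF_TZD_KO, against 39.2, 25.8, 21.9, 10.8 and 21.4 CPM in HF_KO (log2 fold change 2.03, SE 0.34, adjusted p = 0.0365). Reads that fit both copies may be split or dropped in counting, so the share of each copy is uncertain. By edgeR Hamp was the member that rose among 23 acute phase genes, and none fell (median 0.09), which is 4.35% called beside 0.735% of all genes. An unadjusted p under 0.05 was found at 12 of the 23, and DESeq2 called 4 of 24 higher and 4 lower. The serum amyloid genes Saa1 and Saa2, which inflammation raises, had log2 fold changes of -0.64 (adjusted p = 0.0994) and -0.66 (adjusted p = 0.114).

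Among 28 genes of xenobiotic metabolism, Sult1a1 rose and Gsta1 fell by edgeR. An unadjusted p under 0.05 was found at 15 of the 28, and DESeq2 called 2 of 29 higher and 4 lower. Sult1a1, a sulfotransferase for phenols, had 290.1, 337, 310.2, 393 and 396 CPM in HF_TZD_KO, against 282, 191, 182, 169.8 and 181 CPM in HF_KO (log2 fold change 0.79, SE 0.14, adjusted p = 0.0373). HF_KO replicate 1 stood close under the lowest dosed mouse and far above the other undosed ones. Gsta1, a glutathione transferase induced by oxidative stress, had 17.5, 3.91, 7.07, 12.7 and 7.05 CPM in HF_TZD_KO, against 22.7, 39.6, 53.3, 56.3 and 48.6 CPM in HF_KO (log2 fold change -2.19, SE 0.35, adjusted p = 0.0365). Each dosed mouse lay below each undosed one, with near-identical family members making the share of this copy uncertain. In mice labelled control Gsta1 fell as well (log2 fold change of HF_TZD_C over HF_C -1.43, adjusted p = 0.00261). Gsta2 had a log2 fold change of -0.76 (adjusted p = 0.0598) and Ephx1, an epoxide hydrolase, of -0.58 (adjusted p = 0.0684). Cyp2c40, a fatty acid hydroxylase listed as female-biased, had 2.47, 0.764, 1.48, 2.06 and 3.42 CPM in HF_TZD_KO, against 0.162, 0.456, 0.199, 0.258 and 0.704 CPM in HF_KO (log2 fold change 2.50, SE 0.47, adjusted p = 0.0373). These rest on 54, 17, 27, 39 and 67 reads in HF_TZD_KO and 4, 11, 5, 7 and 19 reads in HF_KO, of which the lowest dosed value lay just above the highest undosed one.

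**Figure D2:**
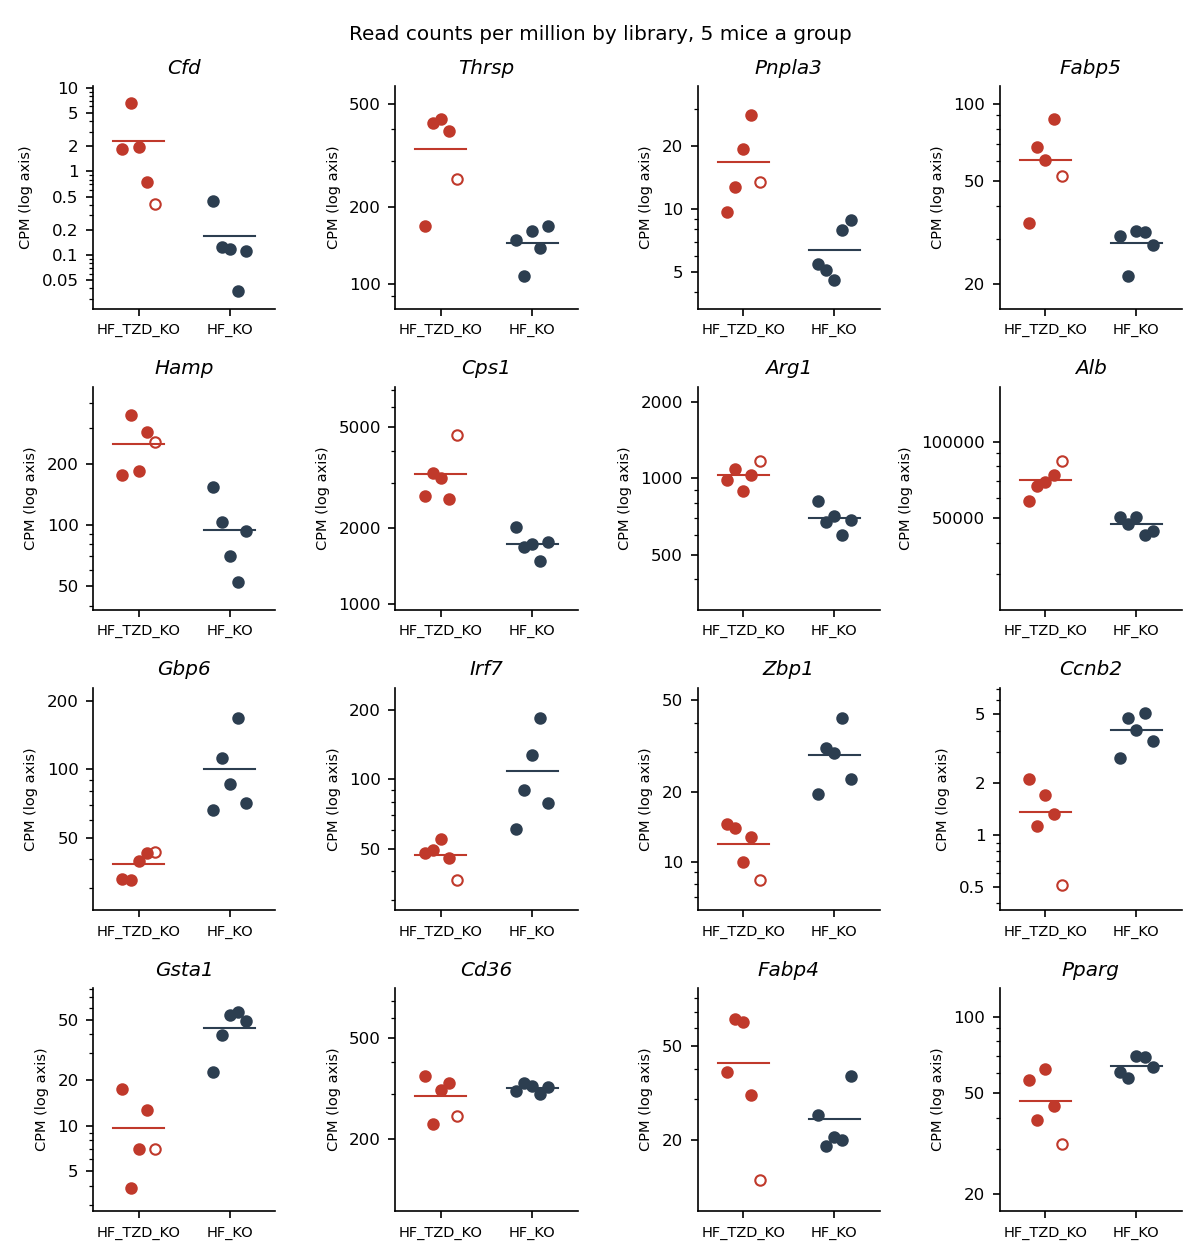
Each panel shows 1 of 16 genes in CPM on a log axis, with HF_TZD_KO to the left of HF_KO. Dots are the 5 mice of a group, lines are group means and the open dot is HF_TZD_KO replicate 5. Cps1, Hamp and Pnpla3 are higher in every dosed mouse and Gbp6, Zbp1 and Gsta1 lower, while Cd36, Fabp4 and Pparg overlap between the groups.

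Thrsp and Pnpla3 rose among 22 genes of fatty acid synthesis, and none fell, which is 9.09% called beside 0.735% of all genes. Thrsp, whose protein promotes fatty acid synthesis, had 168, 423, 439, 393 and 258 CPM in HF_TZD_KO, against 149, 108, 161, 138 and 168 CPM in HF_KO (log2 fold change 1.22, SE 0.23, adjusted p = 0.0373). Replicate 1 was level with the highest undosed mouse and the other 4 dosed mice stood well above. Pnpla3, a lipid droplet protein gene raised by feeding, had 9.72, 12.8, 19.5, 28.3 and 13.5 CPM in HF_TZD_KO, against 5.47, 5.10, 4.57, 7.92 and 8.89 CPM in HF_KO (log2 fold change 1.39, SE 0.28, adjusted p = 0.0453). The groups did not overlap, and replicate 4 was the highest. The list's median was 0.26. Fasn, the fatty acid synthase, averaged 1284 ± 482 CPM in HF_TZD_KO and 813 ± 260 CPM in HF_KO (SD, n = 5 each). That difference did not pass (log2 fold change 0.67, SE 0.26, adjusted p = 0.232). Scd1, a desaturase, had a log2 fold change of 0.29 (adjusted p = 0.439) and Srebf1, a regulator of the pathway, of 0.20 (adjusted p = 0.616).

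All 24 tested genes of cholesterol synthesis and uptake were above 0, with a median of 0.50, but 1 of them, Stard4, passed by edgeR. An unadjusted p under 0.05 was found at 12, and DESeq2 called 3 higher. In control mice 23 of the 24 were below 0 (median -0.37), with 15 at an unadjusted p under 0.05 and 0 called. The difference between genotypes passed at 1 member by edgeR, with 21 at an unadjusted p under 0.05. Stard4, a sterol carrier, had 107, 134, 164, 163 and 132 CPM in HF_TZD_KO, against 99.0, 90.5, 108, 96.6 and 80.1 CPM in HF_KO. The edges of the groups touched (log2 fold change 0.57, SE 0.12, adjusted p = 0.0487), and with library totals alone the gene missed the threshold (adjusted p = 0.0690). Relative to the HF_KO mean, the list's median level was -0.10, 0.57, 0.55, 1.02 and 0.07 in HF_TZD_KO and 0.10, -0.34, 0.18, 0.26 and -0.15 in HF_KO. Replicates 2, 3 and 4 were high and replicates 1 and 5 lay among the undosed mice. Sqle, squalene epoxidase, had a log2 fold change of 0.51 (adjusted p = 0.478).

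Cfd, the gene of the adipocyte serine protease adipsin (chromosome 10, 79890853 to 79892656), had the highest log2 fold change of the 107 at very low levels (log2 fold change 3.78, SE 0.77, adjusted p = 0.0470). It had 1.88, 6.51, 1.97, 0.739 and 0.409 CPM in HF_TZD_KO, against 0.446, 0.124, 0.119, 0.0368 and 0.111 CPM in HF_KO. These levels rest on 41, 145, 36, 14 and 8 reads in HF_TZD_KO and 11, 3, 3, 1 and 3 reads in HF_KO. Replicate 2 was far above the rest, and replicate 5 lay just under HF_KO replicate 1. Fabp5, a fatty acid carrier of macrophages and other cells, had 34.5, 68.2, 60.3, 87.3 and 52.3 CPM in HF_TZD_KO, against 30.7, 21.5, 32.1, 31.7 and 28.3 CPM in HF_KO (log2 fold change 1.07, SE 0.20, adjusted p = 0.0373). Every dosed mouse was above every undosed one, by little in replicate 1.

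Of 10 adipocyte markers tested, Cfd and Thrsp rose and none fell (median 0.35). The 15 markers found summed to 1168 to 2231 CPM in HF_TZD_KO and 1013 to 1136 CPM in HF_KO. The same sum was 2835 to 3436 CPM in the healthy mice of LF_C, so it does not measure adipocytes in these livers. Thrsp alone averaged 336 CPM in HF_TZD_KO and 145 CPM in HF_KO. Cidec, also on the list, was lower in every dosed mouse but did not pass. Adipoq, the gene of the adipocyte hormone adiponectin, was at 0 reads in all 10 libraries, and Plin1, which coats adipocyte lipid droplets, averaged 0.0219 CPM in HF_TZD_KO and was at 0 in HF_KO.

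The lipid uptake and lipid droplet genes set a contrast with mice labelled control. Of 29 tested, Pnpla3 alone rose in livers labelled knockout, none fell and the median was -0.03. In mice labelled control, where 792 of 14937 genes passed (5.30%), 10 of these genes rose, 1 fell and the median was 0.17. The counts at an unadjusted p under 0.05 were closer, 11 in livers labelled knockout and 13 in control livers. In livers labelled knockout DESeq2 called 2 members higher and 1 lower. The drug effects themselves differed between genotypes at 376 of 15365 genes (2.45%). Among them were 6 of the uptake and droplet genes, all with a lower effect in the mice labelled knockout. Under library totals alone the split of that difference was 163 higher and 387 lower, against 239 higher and 137 lower here.

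Cd36, the fatty acid translocase, had 354, 229, 311, 332 and 246 CPM in HF_TZD_KO, against 308, 332, 324, 300 and 319.7 CPM in HF_KO (log2 fold change -0.10, SE 0.11, adjusted p = 0.745). The dosed mice were spread on both sides of the undosed ones. In control mice it had 475, 551, 582, 575 and 521 CPM in HF_TZD_C, against 366, 349, 307, 323 and 355 CPM in HF_C, with no overlap (log2 fold change 0.67, SE 0.07, adjusted p = 0.000137). The drug effect in livers labelled knockout was lower than in control livers by -0.77 on the log2 scale (SE 0.14, adjusted p = 0.00364).

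Fabp4, the adipocyte fatty acid carrier that fatty hepatocytes also express, had 39.0, 65.3, 63.5, 31.2 and 13.5 CPM in HF_TZD_KO, against 25.5, 19.0, 20.6, 20.03 and 37.3 CPM in HF_KO (log2 fold change 0.80, SE 0.34, adjusted p = 0.286). The groups overlapped through HF_TZD_KO replicates 4 and 5. Without replicate 5 the log2 fold change was 1.02 (adjusted p = 0.0606). In control mice it had 656, 551, 519, 418 and 565 CPM in HF_TZD_C, against 24.7, 47.4, 43.3, 43.0 and 43.7 CPM in HF_C. Every dosed control mouse was far above every undosed one (log2 fold change 3.75, SE 0.17, adjusted p = 9.89e-08), and the difference between genotypes was -2.95 (adjusted p = 0.00134).

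Cidec, which fuses lipid droplets, had 69.7, 31.8, 52.5, 39.5 and 16.8 CPM in HF_TZD_KO, against 71.7, 71.7, 86.8, 116 and 72.2 CPM in HF_KO. Every dosed mouse was below every undosed one, yet the gene did not pass (log2 fold change -0.99, SE 0.29, adjusted p = 0.124), and in control mice it rose (log2 fold change 0.44, SE 0.07, adjusted p = 0.00265). The difference between genotypes passed (difference of log2 fold changes -1.43, SE 0.32, adjusted p = 0.0179). Plin4, another droplet coat gene, and Lpl, lipoprotein lipase, rose in control mice by 0.62 and 0.94, and had log2 fold changes of -0.26 and 0.05 in livers labelled knockout. Their differences between genotypes did not pass (adjusted p = 0.118 and 0.137). Mogat1, which makes diacylglycerol, and Cidea, another droplet protein, had log2 fold changes of -1.45 (adjusted p = 0.114) and 0.25 (adjusted p = 0.882).

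Fatty acid oxidation genes and PPARα targets were set beside control mice in the same way. By edgeR none of 31 tested members passed in livers labelled knockout (median -0.05), with 5 at an unadjusted p under 0.05 and 2 called by DESeq2. In control mice 10 of 32 rose and 1 fell (median 0.24), with 16 at an unadjusted p under 0.05. The drug effect differed between genotypes at 7 of 32 members, each with a lower effect in mice labelled knockout. Over all genes the shares called were 0.735% in livers labelled knockout, 5.30% in control livers and 2.45% for the difference. Vnn1, a pantetheinase, had a log2 fold change of -0.47 in livers labelled knockout and 0.84 in control livers (adjusted p of the difference = 0.00148). Ehhadh, the peroxisomal bifunctional enzyme, had -0.23 in livers labelled knockout and 0.63 in control livers (adjusted p of the difference = 0.00912). Pdk4, Fgf21, Cpt1a and Cyp4a14, further genes that fasting raises, had log2 fold changes of -0.84, -0.56, -0.03 and 0.38 in livers labelled knockout, with adjusted p from 0.146 to 0.930.

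Interferon-stimulated genes were among those that fell. Interferons act in part through the interferon regulatory factors, which bind an element built of GAAA repeats in the promoters of their targets. The core of that element, GAAA, any 2 bases and GAAA, was searched on both strands in RefSeq promoter windows (GRCm38.p6, 250 bases before to 50 after the start site). It was found in 3.44% of all 32851 windows and in 3.2% of the 13561 windows of genes tested. Of the 34 windows of the genes that fell, of which 30 of 45 matched, 5 held it (14.7%). Trim30a gave more than 1 of these 5, and its windows and that of Trim30d hold the same letters at the core. The 5 are therefore few and not independent. The core was found in 2 of the 57 windows of the genes that rose (3.51%), of which 39 of 62 matched. In the interferon-stimulated list 10 of the 18 windows held it (55.6%). A match is a description of the letters and not a binding site. The 4 windows shown belong to genes that fell and hold the core, in capitals, and each is printed 5′ to 3′ on the gene's strand.
Gbp3, chr3:142559794-142560093, plus strand: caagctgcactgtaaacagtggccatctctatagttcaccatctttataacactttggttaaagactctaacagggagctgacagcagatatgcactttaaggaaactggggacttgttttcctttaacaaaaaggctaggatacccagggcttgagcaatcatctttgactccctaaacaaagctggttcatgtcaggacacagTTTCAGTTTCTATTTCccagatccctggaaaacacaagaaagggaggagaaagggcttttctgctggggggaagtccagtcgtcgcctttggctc
Trim30a, chr7:104465144-104465443, minus strand: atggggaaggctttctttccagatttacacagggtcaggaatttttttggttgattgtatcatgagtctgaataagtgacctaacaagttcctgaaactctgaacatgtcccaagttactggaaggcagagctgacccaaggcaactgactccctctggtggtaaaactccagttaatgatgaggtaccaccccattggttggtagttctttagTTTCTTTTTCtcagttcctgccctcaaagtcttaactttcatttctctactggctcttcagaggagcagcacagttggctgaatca
Trim30d, chr7:104507800-104508099, minus strand: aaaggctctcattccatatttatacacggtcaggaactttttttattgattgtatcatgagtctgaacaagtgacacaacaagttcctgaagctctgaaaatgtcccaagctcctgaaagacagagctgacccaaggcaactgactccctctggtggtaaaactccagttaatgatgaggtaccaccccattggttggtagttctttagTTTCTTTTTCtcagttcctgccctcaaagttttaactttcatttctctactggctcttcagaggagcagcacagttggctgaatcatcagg
Mmp13, chr9:7272264-7272563, plus strand: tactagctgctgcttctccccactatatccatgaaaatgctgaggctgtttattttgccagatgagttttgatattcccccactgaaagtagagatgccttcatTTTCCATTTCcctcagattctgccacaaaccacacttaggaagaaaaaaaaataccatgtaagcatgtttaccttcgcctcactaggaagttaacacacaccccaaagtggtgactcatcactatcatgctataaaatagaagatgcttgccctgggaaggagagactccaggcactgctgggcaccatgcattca
The exact direct repeat of PPARγ (AGGTCA, 1 base, AGGTCA, both strands) was in 13 of all windows (0.0396%), too few to compare sets of this size.

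Of 23 interferon-stimulated genes tested, 4 fell, 0 rose, and all 23 were below 0, with a median log2 fold change of -0.94 beside 0.00 over all genes. The groups did not overlap at 10 of the 23, against 637 of all 14559 genes tested (4.38%). The 4 called are 17.4% of the list, beside 0.735% of all genes. Irf7, an interferon regulatory factor, had 47.9, 49.2, 55.3, 45.6 and 36.6 CPM in HF_TZD_KO, against 61.2, 89.8, 128, 185 and 78.6 CPM in HF_KO (log2 fold change -1.20, SE 0.25, adjusted p = 0.0470). The groups were apart, HF_KO replicates 3 and 4 were the highest, and without HF_TZD_KO replicate 5 the gene missed the threshold (adjusted p = 0.0570). Its locus overlaps Phrf1, whose reads cannot be told apart without strand.

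Gbp6, a guanylate-binding protein gene of defence against intracellular microbes, had 32.9, 32.4, 39.3, 42.6 and 43.1 CPM in HF_TZD_KO, against 66.4, 112, 86.1, 169.7 and 70.8 CPM in HF_KO (log2 fold change -1.40, SE 0.23, adjusted p = 0.0365). HF_KO replicate 4 was the highest, and the 5 dosed mice all lay below the lowest undosed one. Gbp3, a member of the same family whose promoter is printed above, had 17.6, 19.7, 19.8, 16.8 and 11.4 CPM in HF_TZD_KO, against 30.8, 40.7, 36.3, 56.6 and 25.6 CPM in HF_KO (log2 fold change -1.15, SE 0.20, adjusted p = 0.0373). It overlaps Gbp5, and family members with similar sequence make its own share uncertain. Members that did not pass were Ifit1, an antiviral protein that binds foreign RNA, with a log2 fold change of -1.42 (adjusted p = 0.0570), Usp18, which removes ISG15 from proteins, with -1.30 (adjusted p = 0.0523), and Isg15 with -1.41 (adjusted p = 0.101).

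Related genes outside the list fell too. Zbp1, a sensor of Z-form nucleic acids, had 14.6, 13.9, 9.97, 12.8 and 8.33 CPM in HF_TZD_KO, against 19.7, 31.0, 29.5, 41.9 and 22.8 CPM in HF_KO (log2 fold change -1.27, SE 0.21, adjusted p = 0.0365). Dosed and undosed mice did not overlap. Trim30a and Trim30d, relatives of the antiviral restriction factors, were picked after their values were seen because their promoters hold the core. Trim30a had 23.2, 22.5, 22.0, 23.5 and 14.7 CPM in HF_TZD_KO, against 28.2, 39.9, 37.3, 46.4 and 33.1 CPM in HF_KO (log2 fold change -0.80, SE 0.15, adjusted p = 0.0373). Trim30d had 17.6, 16.3, 20.5, 17.5 and 16.5 CPM in HF_TZD_KO, against 21.7, 32.9, 35.9, 35.4 and 24.7 CPM in HF_KO (log2 fold change -0.77, SE 0.14, adjusted p = 0.0373). Both were lower in all dosed mice than in all undosed ones, and as near copies they may exchange reads. Cd14, the lipopolysaccharide co-receptor, had 13.8, 13.1, 11.2, 11.1 and 12.3 CPM in HF_TZD_KO, against 19.0, 20.7, 16.5, 22.5 and 20.7 CPM in HF_KO, also without overlap (log2 fold change -0.68, SE 0.10, adjusted p = 0.0365).

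The median level of the interferon list relative to the HF_KO mean was -0.77, -0.65, -0.63, -0.85 and -1.45 in HF_TZD_KO and -0.48, 0.09, -0.05, 0.69 and -0.27 in HF_KO. Each dosed mouse was below each undosed one, with HF_KO replicate 4 the highest and HF_TZD_KO replicate 5 the lowest. Without replicate 5, 3 members fell and the median was -0.75. Leaving out any 1 of the 10 libraries kept the median between -1.02 and -0.74. DESeq2 called 14 of the 23 lower, beside 322 lower of all 15732 genes. In control mice 1 of 23 fell (median -0.28), and the difference between genotypes passed at 0 members by edgeR, with 13 at an unadjusted p under 0.05. Outside the list, the difference passed for Zbp1 (-1.43, adjusted p = 0.00840), Trim30a (-0.77, adjusted p = 0.0434) and Trim30d (-0.73, adjusted p = 0.0484).

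Ccnb1 and Ccnb2 fell among the genes of cell division. Ccnb2, a cyclin of mitotic entry, had 2.11, 1.12, 1.70, 1.32 and 0.511 CPM in HF_TZD_KO, against 2.79, 4.73, 4.02, 5.08 and 3.48 CPM in HF_KO (log2 fold change -1.56, SE 0.31, adjusted p = 0.0453). Ccnb1, a related cyclin of that step, had 1.33, 0.853, 1.97, 1.74 and 0.664 CPM in HF_TZD_KO, against 2.84, 3.40, 3.98, 3.13 and 3.52 CPM in HF_KO (log2 fold change -1.36, SE 0.28, adjusted p = 0.0453). All dosed mice were below all undosed ones in both genes, and HF_TZD_KO replicate 5 was the lowest. They were the 2 members that fell among 24 cell cycle genes, 0 rose, 23 of the 24 were below 0 and the median was -0.65. Mki67, the proliferation antigen, had a log2 fold change of -0.92 (adjusted p = 0.0546). The list's median level was -0.32, -0.51, -0.42, -0.44 and -1.58 in HF_TZD_KO and -0.26, 0.11, -0.04, 0.06 and 0.11 in HF_KO. The groups did not overlap, by a narrow margin at dosed replicate 1 and undosed replicate 1, and replicate 5 was far below the rest. Without it, 3 members fell and the median was -0.52.

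**Figure D3:**
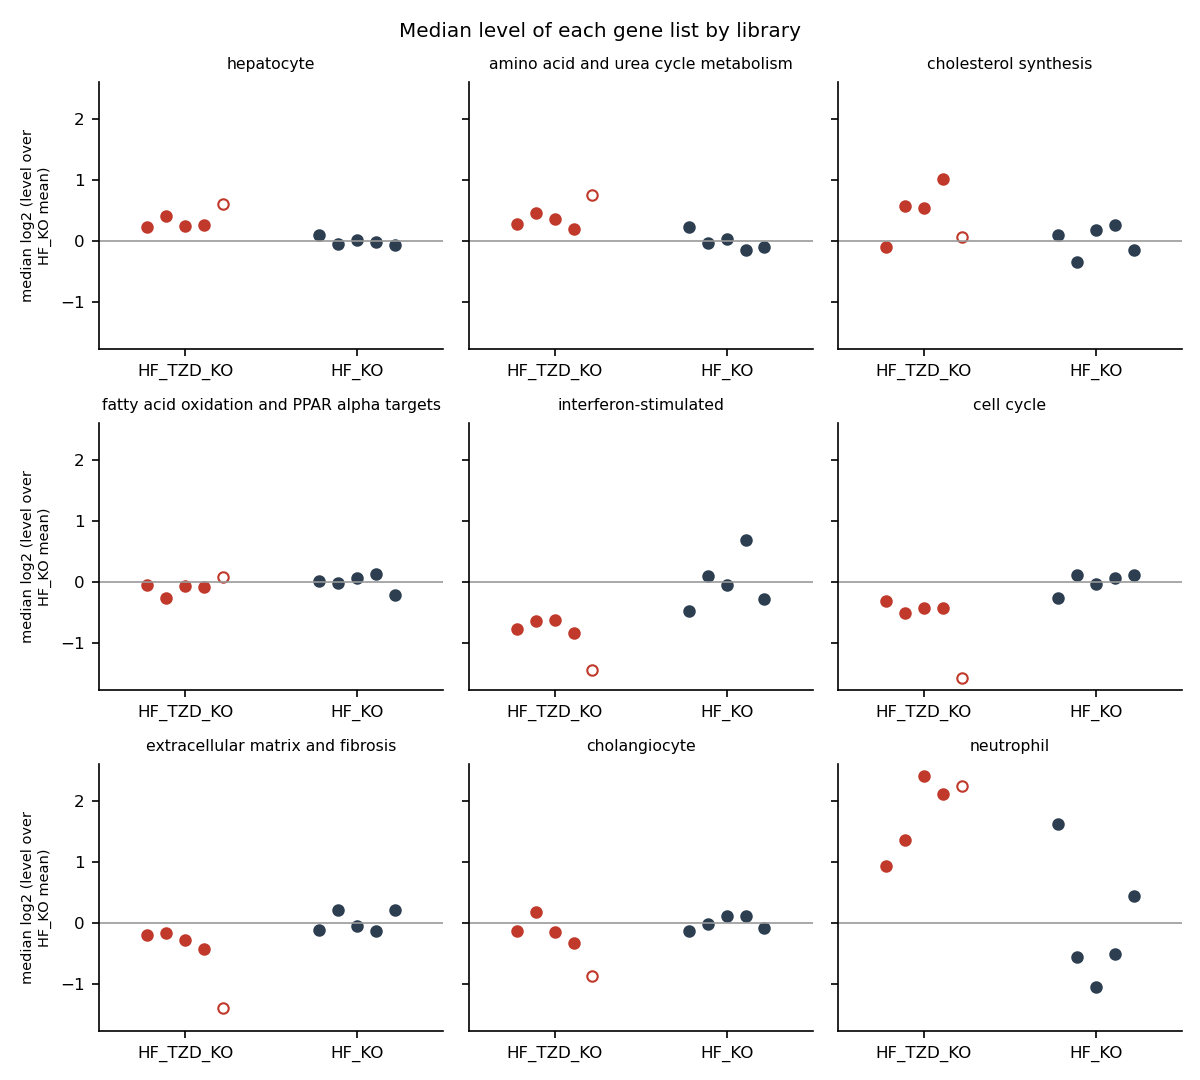
For 9 gene lists, each dot is a mouse, placed by the median log2 level of the list's tested members relative to the HF_KO mean (y axis), with HF_TZD_KO to the left of HF_KO. The open dot, HF_TZD_KO replicate 5, is the lowest in the interferon, cell cycle, extracellular matrix and cholangiocyte panels and the highest in the hepatocyte panel.

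Few genes of inflammation and scarring passed the test, and replicate 5 carried a large part of their medians. Among 22 markers of recruited and lipid-associated macrophages, Fabp5 rose, Mmp13 fell and the median was -0.40, or -0.20 without replicate 5. Mmp13, a collagenase that takes part in matrix turnover, had 2.80, 3.86, 3.18, 1.43 and 2.10 CPM in HF_TZD_KO, against 5.87, 8.05, 4.65, 8.32 and 9.15 CPM in HF_KO (log2 fold change -1.42, SE 0.26, adjusted p = 0.0373), with every dosed mouse below every undosed one. Of 32 genes of extracellular matrix and fibrosis none passed by edgeR, 16 had an unadjusted p under 0.05, DESeq2 called 4 lower, 29 were below 0 and the median was -0.39. The list's median level was -0.21, -0.17, -0.28, -0.42 and -1.40 in HF_TZD_KO and -0.13, 0.21, -0.05, -0.13 and 0.21 in HF_KO, and without replicate 5 the median over genes was -0.24. Col1a1, the main fibrillar collagen of scars, had 107, 104, 94.6, 83.9 and 30.2 CPM in HF_TZD_KO, against 111, 187, 147, 149 and 168 CPM in HF_KO. All dosed mice lay below all undosed ones, and the gene missed the threshold (log2 fold change -0.86, SE 0.26, adjusted p = 0.136). Without replicate 5 it passed (log2 fold change -0.65, adjusted p = 0.0408), as did Col3a1 (adjusted p = 0.0373). Timp1, a protease inhibitor of scarring liver, had a log2 fold change of -0.77 (adjusted p = 0.0966), with reads of the overlapping Syn1 possible. Acta2, of activated stellate cells, Ccl2, a monocyte chemokine, and Trem2, of scar-associated macrophages, had log2 fold changes of 0.05, -0.58 and -0.13 and did not pass.

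Markers of cell types are given beside these results, and their part in them was not tested. Over all genes 0.735% were called by edgeR, and 2232 of 14559 had an unadjusted p under 0.05. Macrophage markers summed to 947 to 2205 CPM in HF_TZD_KO, lowest in replicate 5, and 1828 to 2113 CPM in HF_KO. Cholangiocyte markers summed to 275 to 795 CPM in HF_TZD_KO, lowest in replicate 5, and 786 to 924 CPM in HF_KO, and none of 16 passed by edgeR or DESeq2 (median -0.22, 1 at an unadjusted p under 0.05). Stellate cell markers summed to 662 to 1508 CPM in HF_TZD_KO and 995 to 1219 CPM in HF_KO, with none of 18 past the test by edgeR, 2 at an unadjusted p under 0.05 and 1 called by DESeq2. Kupffer cell (15 tested), lymphocyte (21) and endothelial (16) markers had no member past the test by edgeR or DESeq2, with 2, 1 and 1 at an unadjusted p under 0.05, and medians of 0.11, -0.24 and -0.11. Without HF_TZD_KO replicate 5 the medians were -0.09 for lymphocyte, 0.005 for endothelial and -0.09 for cholangiocyte markers, and without HF_KO replicate 1 the lymphocyte median was 0.04. Among 8 neutrophil markers none passed by edgeR, 5 had an unadjusted p under 0.05 and DESeq2 called 2 higher, while the median was 1.495. Their median level was 0.93, 1.37, 2.42, 2.12 and 2.25 in HF_TZD_KO and 1.63, -0.56, -1.05, -0.52 and 0.45 in HF_KO, where replicate 1 lay among the dosed mice. The summed level of these markers was low, at 25.9 to 51.6 CPM in HF_TZD_KO and 12.01 to 35.1 CPM in HF_KO.

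Growth hormone gives many liver genes a male or female pattern, and the male-biased genes varied strongly between dosed mice. By edgeR none of 19 passed (median 0.38), 9 had an unadjusted p under 0.05 and DESeq2 called 5 higher and 1 lower. Hsd3b5, a steroid dehydrogenase of male mouse liver, had 0.504, 0.674, 38.1, 0.106 and 59.6 CPM in HF_TZD_KO, against 0, 0.373, 0.914, 1.73 and 0.259 CPM in HF_KO. Replicates 3 and 5 of the dosed group were far above all other mice, and the gene did not pass (log2 fold change 4.88, SE 1.40, adjusted p = 0.116). The list's median level was -0.42, -0.15, 1.53, -0.45 and 1.13 in HF_TZD_KO and -0.62, -0.06, 0.08, 0.56 and 0.08 in HF_KO. No member passed by edgeR among bile acid genes (21 tested), clock genes (20), respiratory chain genes (25) and cytokine and adhesion genes (22). At an unadjusted p under 0.05 there were 7, 4, 3 and 6, beside 2232 of all 14559 genes. DESeq2 called 6, 0, 0 and 2, beside 649 of all 15732 genes. Cyp7a1 and Cyp8b1, which decide how much bile acid is made and of which kind, had log2 fold changes of 0.55 and -0.12. Ucp1, of brown fat, had a mean of at most 0.0309 CPM in either group.

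**Figure D4:**
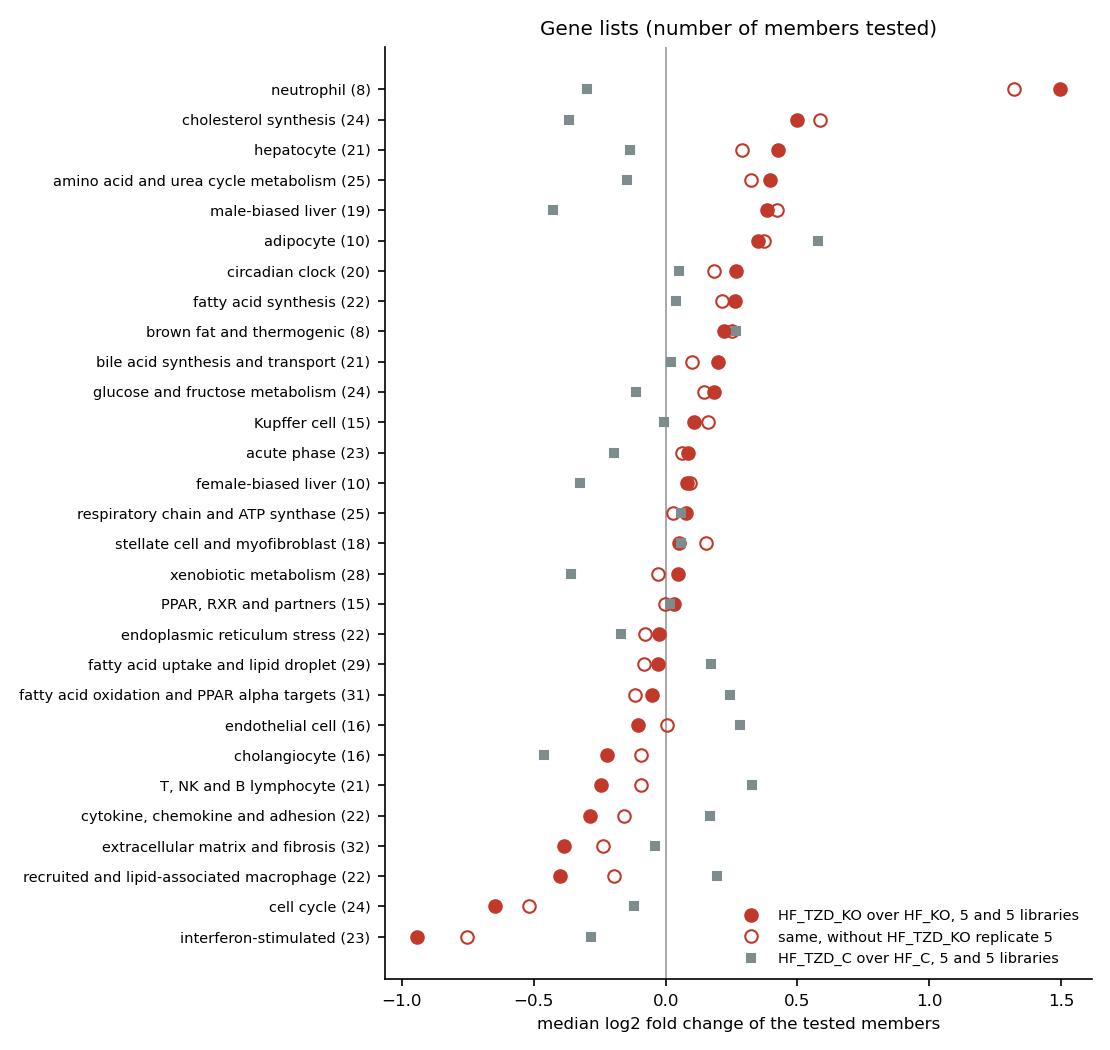
The median log2 fold change over the tested members of each of 29 gene lists with at least 8 members tested (x axis). Filled red dots are HF_TZD_KO over HF_KO, open dots the same without HF_TZD_KO replicate 5, and grey squares HF_TZD_C over HF_C. The interferon-stimulated list has medians of -0.94 with and -0.75 without replicate 5, and -0.28 in control mice.

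The calls in livers labelled knockout were set beside those in control livers, and the 2 comparisons share no library. Among 14446 genes tested in both, 106 were called in livers labelled knockout, 770 in control livers and 28 in both, 23 of these in the same direction. These 23 are 21.7% of the calls in livers labelled knockout and 2.99% of those in control livers. Both shares depend on the unlike counts of calls. At an unadjusted p under 0.05 there were 2232 genes in livers labelled knockout and 2851 in control livers. The fit of all 24 libraries called 440 in livers labelled knockout and 387 in control livers. By sign alone, 69 of the 106 pointed the same way in control livers and 37 the opposite way, and 52.0% of all genes tested in both had the same sign. Across genes the log2 fold changes had a Pearson correlation of 0.146 and a Spearman correlation of 0.0549, as a description over genes that are not independent. Cfd, Thrsp and Fabp5 rose in both genotypes, with log2 fold changes in control mice of 3.84, 0.86 and 0.80. Abcc12, an ABC transporter, fell in both, with 0.596, 0.853, 0.877, 1.00 and 1.12 CPM in HF_TZD_KO, against 2.39, 3.61, 3.10, 3.57 and 2.44 CPM in HF_KO (log2 fold change -1.76, SE 0.24, adjusted p = 0.0259) and a log2 fold change of -1.20 in control mice. Slc13a3, a dicarboxylate carrier, also fell in both, with log2 fold changes of -0.64 in livers labelled knockout and -1.10 in control livers, as did Spats2l, with -1.33 in livers labelled knockout and -0.63 in control livers.

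The drug effect itself differed between genotypes for 41 of the 107 genes, 32 of those that rose and 9 of those that fell. Over all genes tested it differed for 376 of 15365 (2.45%). The 107 were picked for their change in livers labelled knockout, which is a term of this difference. A share above that of all genes was therefore built in. Cps1 had a log2 fold change of 0.93 in livers labelled knockout and -0.11 in control livers, a difference of 1.03 (SE 0.22, adjusted p = 0.0131). Gnmt had 0.63 in livers labelled knockout and -0.39 in control livers, a difference of 1.01 (adjusted p = 0.00499). Herpud1 rose in livers labelled knockout and fell in control livers (log2 fold change -0.32, adjusted p = 0.0248), a difference of 0.99 (adjusted p = 0.00134). Alb also differed, by 0.80 (adjusted p = 0.00976). In all, 9 of 21 hepatocyte markers and 9 of 25 amino acid genes differed, each with a higher drug effect in mice labelled knockout. In control mice 5 of the 21 hepatocyte markers and 3 of the 25 amino acid genes fell. Mvp, the major vault protein gene, differed by -0.47 and fell by 0.52 on the log2 scale in livers labelled knockout.

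Rbm24, an RNA-binding protein gene, had 5.22, 4.54, 4.88, 4.01 and 0.767 CPM in HF_TZD_KO, against 8.26, 7.01, 8.99, 9.20 and 6.998 CPM in HF_KO. In control mice it had 0.179, 0.234, 0.222, 0.492 and 0.214 CPM in HF_TZD_C, against 3.86, 2.92, 4.99, 5.69 and 4.65 CPM in HF_C. Its log2 fold change was -1.05 in livers labelled knockout (adjusted p = 0.146) and -4.01 in control livers, where the groups were far apart (difference 2.96, SE 0.50, adjusted p = 0.00271). Fabp3, the heart-type fatty acid carrier, averaged 0.134 ± 0.0879 CPM in HF_TZD_KO and 0.272 ± 0.0903 CPM in HF_KO, against 6.30 ± 1.75 CPM in HF_TZD_C and 0.961 ± 0.629 CPM in HF_C (SD, n = 5 each). Its difference was -3.73 (adjusted p = 0.0131). It rests on 1, 2, 5, 3 and 2 reads in HF_TZD_KO and 4, 7, 7, 11 and 6 reads in HF_KO, where the gene was too low to be tested alone, so it entered the test of the difference through the control mice. Its locus overlaps Zcchc17. Avpr1a, the hepatic vasopressin receptor, differed by 1.86 (adjusted p = 0.00364). Ltf, a neutrophil granule protein, and Slco1a1, a male-biased organic anion carrier, differed by 5.05 and 3.90, and without HF_TZD_KO replicate 5 both missed the threshold (adjusted p = 0.0652 and 0.0820).

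**Figure D5:**
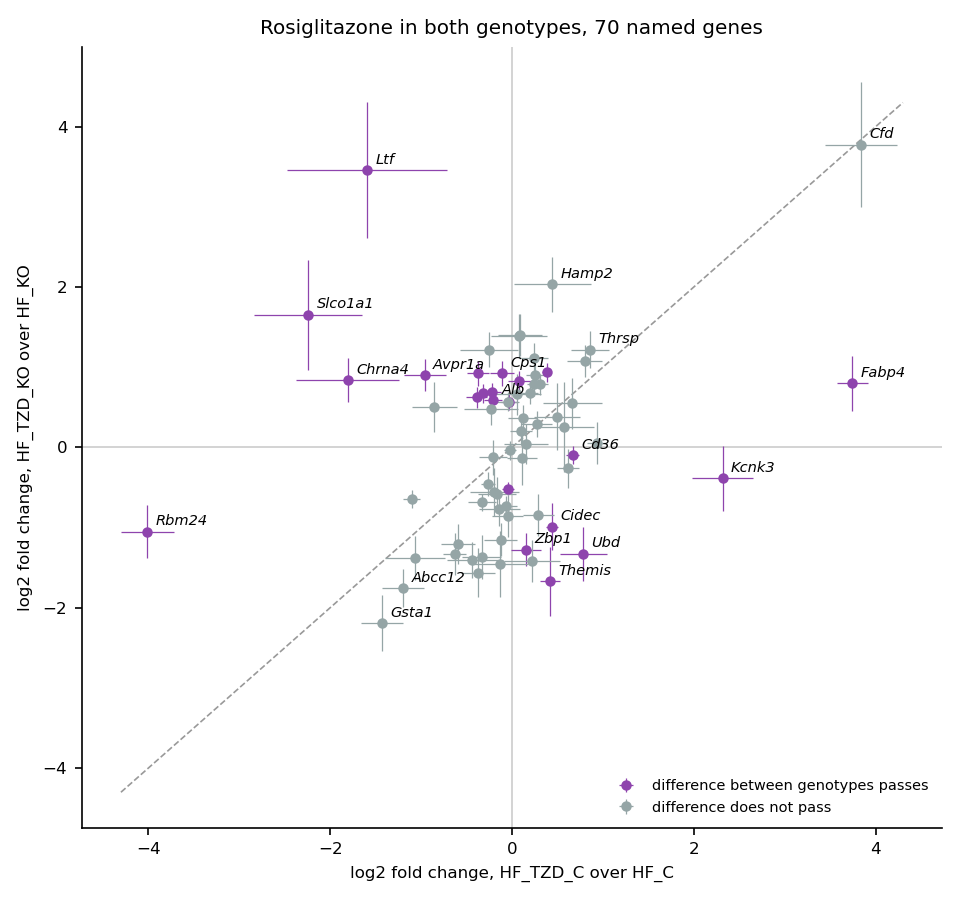
Each of 70 named genes is placed by its log2 fold change of HF_TZD_C over HF_C (x axis) and of HF_TZD_KO over HF_KO (y axis), with bars of 1 SE and a dashed line of equal effects. The 22 purple genes pass the test of the difference, Fabp4 and Kcnk3 below the line and Rbm24 and Ltf above it, while Cfd lies on it.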

How the data were processed

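Whole liver RNA was extracted with Trizol and sequenced without strand specificity, per the labels' protocols. Reads were aligned with STAR 2.6.1 to GRCm38/mm10, counted with HTSeq 0.6.1 and compared with DESeq2, per the submitters' processing notes, and the annotation release is not given in the sources used here. The authors deposited whole-number read counts per gene and sample for pairs of groups, with the gene length in bases. The authors' deposited comparison gives log2 fold changes and p-values, which were used only where named. Another 98 columns of normalized values were not used.

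Counts were joined by gene identifier into 24137 genes, with 0 of 556350 shared values differing between tables. In R 4.3.3, edgeR 4.0.16 (filterByExpr, minimum count 10 and total 15; TMM; quasi-likelihood F test, two-sided) was fitted to the 10 libraries of each drug comparison. The 20 libraries on the HFCF diet were fitted for the difference, with adjusted p under 0.05 as the threshold. Replicate pairs differed beyond counting error (chi-square per degree of freedom 12.7 to 59.1 in the knockout groups). Abundant genes weigh most in that value. It therefore does not show what depth adds to the spread at a typical gene or at genes of few reads, such as Cfd and Cyp2c40. Nothing in the labels marks a batch. The mice have separate identifiers, so replicates are mice, and their numbers did not pair across groups.

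Gene lists (32, of which 647 of 651 members were found) and named genes (30 fixed genes, the 8 highest, 8 lowest and 8 smallest adjusted p per direction among non-overlapping protein-coding calls of at least 2 CPM, up to 4 called members per list, and 5 genes per direction of the difference) followed written rules. The members, lists, rules and motifs were chosen with earlier results of these data known, so their counts are descriptions. List levels used log2 (CPM + 0.1). Lists without a called member that the text leaves unnamed (erythrocyte, exocrine pancreas, skeletal muscle, brown fat, PPAR and RXR partners) had 0 calls. Promoter windows are RefSeq's, build GRCm38.p6. Alternatives were other scaling and filters, DESeq2 1.42.0, thinned counts, a replicate block, a fold threshold, all 24 libraries in 1 fit and each library left out. Some genes of these lists are counted in the list totals but not reported here.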

Additional observations from a re-analysis of the deposited data

Results flagged for a closer look

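Groups of 5 mice were searched for a mouse far from the others with Dixon's test at the 95% level, which marks about 1 in 20 groups by chance, and 9 of 162 groups were found. Among dosed mice, HF_TZD_KO replicate 2 was high for Cfd at 6.51 CPM and replicate 5 low for Rbm24 at 0.767 CPM. HF_KO replicate 1 was the high mouse in 5 groups, with 0.446 CPM for Cfd, 51.0 CPM for Fbxo31, 33.7 CPM for Urad, 282 CPM for Sult1a1 and 1.98 CPM for Ltf. For 4 of these 5 genes, Cfd, Fbxo31, Urad and Sult1a1, HF_TZD_KO was called higher, so this undosed mouse lay on the side of the dosed ones, and without it 143 genes passed in place of 107. HF_KO replicate 2 was low for Angptl4 at 68.8 CPM and replicate 4 high for Fgf21 at 36.8 CPM.

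Among the named genes, 23 had a drug effect that differed between genotypes by edgeR's test over 15365 genes, as differences of log2 fold changes, livers labelled knockout minus control livers. Some were named for that difference or for their change in livers labelled knockout, so the count is a description. Those higher in livers labelled knockout were Ltf (5.05), Slco1a1 (3.90), Rbm24 (2.96), Chrna4 (2.65), Avpr1a (1.86), Fam47e (1.30), Cps1 (1.03), Gnmt (1.01), Herpud1 (0.99), Paox (0.91), Alb (0.80), Urad (0.75), Arg1 (0.60) and Fbxo31 (0.56). Those lower were Fabp3 (-3.73), Fabp4 (-2.95), Kcnk3 (-2.70), Ubd (-2.11), Themis (-2.09), Cidec (-1.43), Zbp1 (-1.43), Cd36 (-0.77) and Mvp (-0.47).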

How the results depend on the processing

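The count of 107 genes in livers labelled knockout was 113 with RLE size factors, 86 for genes of at least 2 CPM and 117 after thinning. It was 220 with library totals alone, 201 with no filter, 649 by DESeq2, 440 in a fit of all 24 libraries and 31 at a log2 fold change of at least 1. Without 1 library it ran from 0 to 223. In control mice 792 genes became 1219 by DESeq2, 387 in a fit of all 24 libraries and 114 at a log2 fold change of at least 1, and 497 to 930 without 1 library, lowest without HF_TZD_C replicate 2. The difference between genotypes, 376 genes, became 733 by DESeq2, 202 in a fit of all 24 libraries and 90 at a log2 fold change of at least 1. Without 1 library it ran from 191 to 467, and it was more than 1.5 times smaller without HF_TZD_C replicate 2 (191), HF_KO replicate 2 (205), HF_C replicate 5 (233) or HF_TZD_C replicate 5 (241). Replicate numbers did not pair the mice (correlations of same-numbered deviations -0.078 to 0.102 in the knockout groups, and no library correlated best with its own number). With the replicate block the counts were 0 in livers labelled knockout by edgeR (1963 at an unadjusted p under 0.05, DESeq2 without the block 649), 386 in control livers and 236 for the difference. Of 37 named genes called in livers labelled knockout, 36 still passed with library totals alone (Stard4 did not), 37 with RLE, no filter and DESeq2, 35 in the fit of all 24 libraries and 34 after thinning. The differences of Fbxo31 and Urad did not pass with library totals alone (adjusted p = 0.0792 and 0.0728). No named gene called in livers labelled knockout changed direction under any alternative, which their choice on the same libraries made likely beforehand. Medians of lists near 0 did change sign: acute phase, respiratory chain, stellate, xenobiotic, erythrocyte, female-biased and PPAR partner with library totals alone, xenobiotic, endothelial, erythrocyte and PPAR partner without HF_TZD_KO replicate 5, stellate, xenobiotic, endothelial, erythrocyte, female-biased, Kupffer cell, lymphocyte, endoplasmic reticulum stress and lipid droplet without 1 or more of the other libraries, erythrocyte with the replicate block, and skeletal muscle, with 1 gene tested, with no filter and by DESeq2. The causes of these moves were not tested. Depth of 19.5 to 28.7 M reads limits genes of under about 1 CPM.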

Other observations

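Further genes that passed were picked here after their values were seen. Lgals1, a galectin of activated stroma, had 40.1, 34.9, 28.8, 34.5 and 16.4 CPM in HF_TZD_KO, against 55.4, 54.3, 53.6, 67.1 and 54.7 CPM in HF_KO (log2 fold change -0.88, SE 0.18, adjusted p = 0.0475). Krt18, a hepatocyte keratin, fell by 0.46 on the log2 scale, Wfdc2, a secreted antiprotease, by 0.67 and Stmn1, which destabilises microtubules, by 0.75, none with overlap between the groups. Mlkl, the executioner of necroptosis, had 12.9, 9.16, 12.2, 13.8 and 9.86 CPM in HF_TZD_KO, against 16.9, 18.9, 19.1, 21.0 and 15.6 CPM in HF_KO (log2 fold change -0.66, SE 0.13, adjusted p = 0.0453), and its drug effect differed from that in control livers by -0.94 (adjusted p = 0.00255). Tlr2, a receptor for bacterial lipoproteins, fell by 0.59, and the interferon-induced genes Dhx58, Rtp4, Rnf213, Ifi47 and Samd9l had log2 fold changes of -1.09, -0.95, -0.71, -0.65 and -0.64.

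Fkbp5, a chaperone that glucocorticoids induce, had 68.0, 66.7, 64.3, 103 and 77.6 CPM in HF_TZD_KO, against 43.5, 38.9, 51.5, 35.4 and 47.9 CPM in HF_KO (log2 fold change 0.81, SE 0.14, adjusted p = 0.0365). Foxo1, a transcription factor that insulin restrains, had a log2 fold change of 0.36 and Slc37a4, the glucose-6-phosphate carrier, of 0.56. The vascular growth factor Vegfa and the hypoxia factor Epas1 had 0.45 and 0.54. Il6ra, the interleukin-6 receptor, had 44.4, 67.6, 30.8, 62.4 and 63.5 CPM in HF_TZD_KO, against 32.8, 26.8, 30.9, 26.8 and 28.7 CPM in HF_KO, which overlapped (log2 fold change 0.89, SE 0.18, adjusted p = 0.0453). Lect1, a cartilage matrix protein gene, had a log2 fold change of 3.495 in livers labelled knockout and 2.64 in control livers, with 0.458, 2.61, 1.21, 0.844 and 3.88 CPM in HF_TZD_KO, against 0.122, 0.166, 0.0398, 0.295 and 0.148 CPM in HF_KO.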
